A study of Drosophila melanogaster with 6 samples.

Results

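The regions described here are autosomal sites in fly flight muscle where Rbf was called by chromatin immunoprecipitation and sequencing (ChIP-seq) and Dp was not. They were chosen as the peaks of the authors' Rbf list on 2L, 2R, 3L, 3R and chromosome 4 that share no base with any peak of the authors' Dp list. Peaks on X and on the mitochondrial genome were left out, as were those on 2L starting at or beyond 21 Mb and on 3L starting at or beyond 22.5 Mb. Of 2282 autosomal Rbf peaks considered, 265 lacked Dp and 2017 overlapped a Dp peak. The 265 are a subset of 3471 Rbf peaks in all, set against 5149 Dp peaks.

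Flight muscles were dissected from pharate Drosophila melanogaster about 96 h after pupa formation, when the adult is nearly ready to eclose, and chromatin was fixed in 1.8% formaldehyde. Animals of all samples carried P{UAS-mCherry-RNAi}attP2 together with the muscle driver P{GAL4-Mef2}, so that an RNAi hairpin is made in muscle against mCherry, a fluorescent marker foreign to the fly. The series calls them wild type. Rbf was precipitated in 2 samples with the mouse antibodies DX3 and DX5, and Dp in 2 samples with a rabbit antibody, while 2 inputs had none. The authors gave 1 list per antibody, so no replicate spread and no read depth could be given, and no test over samples was possible. Each list is taken to cover both samples of its antibody, from its name and the sample titles. Stage labels give 25 °C for the Rbf samples and 5 °C for the Dp samples, against 25 °C in the growth protocol of both, and which holds for Dp is not settled by the labels. No label says that the antibodies were used in the same experiment, so a difference between the antibodies and one between experiments cannot be told apart. Peak lists measure no expression, so muscle identity could not be checked against marker genes.

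Rbf belongs to the retinoblastoma family of pocket proteins, which repress transcription by binding the activation domain of E2F factors. E2F factors bind DNA as a pair with Dp, the fly's DP protein, and therefore Rbf that reaches chromatin through E2F is expected at sites that also carry Dp. E2F function is known for cell cycle control, and in Drosophila muscle it is needed for the animal to survive. An Rbf peak without a Dp peak is a call in one list and its absence from another, which depends on the threshold of both. Every value below describes the lists. The 95% intervals reflect how many peaks were counted, not the spread between samples, and they are too narrow where peaks cluster.

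No base sequence is shown, because no genome of the files' build, BDGP5, was used here, and the gene table used belongs to another build, Release 6. Coordinates were not converted, so the regions are given by position in BDGP5, counted from 1, and are not assigned to genes, promoters or repeats.

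Rbf peaks without Dp took a pair of distinct forms. Most were single, narrow peaks scattered over the arms, and a minority were wide peaks packed side by side in a few stretches. Linking regions at most 5 kb apart gave 5 runs of 4 or more, and these runs held 48 of the 265 regions. The other 217 are called scattered below. Of these, 199 had no other such region within 5 kb, and 18 lay in 6 groups of 2 and 2 groups of 3. Runs made up 18.1% of the regions (exact Clopper-Pearson interval 13.7 to 23.3) but 58.5% of the length they cover, 104 of 177 kb. Among the 2017 peaks with Dp, runs built the same way from peaks of that class held 268 peaks, 13.3% (11.8 to 14.8), an interval that overlaps the former, and 19.3% of the covered length. Runs were thus found in both classes, and they took up more of the length in the class without Dp. A single run on chromosome 4 held 20 of the 48 regions and 54.4 of the 104 kb, so both shares lean on 1 stretch. Both the limit of 5 kb and the minimum of 4 were set with earlier results of these data known.

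Scattered regions were narrow for Rbf. Their width had a median of 262 bp (249 to 273), with quartiles of 216 and 301 bp and a range from 110 to 6477 bp. Peaks with Dp had a median of 566 bp (552 to 577), or 549 bp (540 to 563) with their own runs left out. Of the scattered regions, 162 of 217 (74.7%, 68.3 to 80.3) were under 300 bp, against 153 of 2017 peaks with Dp (7.59%, 6.47 to 8.83). The 48 regions in runs had a median width of 1405 bp (1087 to 2093), from 397 to 11563 bp, and none was under 300 bp. Width bears on the rule itself, since a wide peak meets another by chance more readily, so these differences were not tested.

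**Figure D1:**
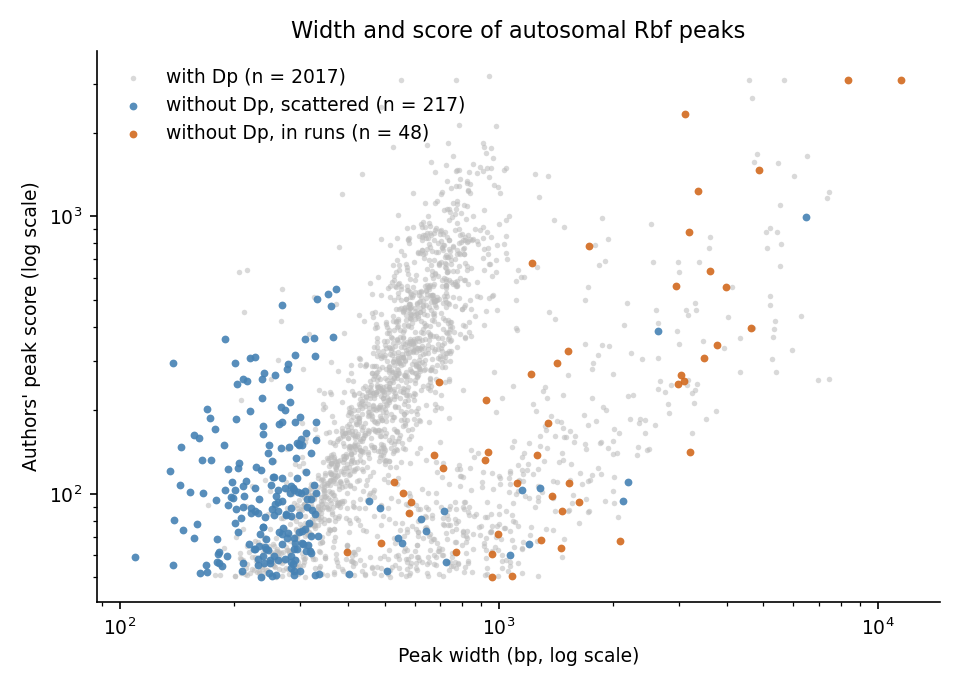
Width (bp, log scale) against the authors' score (log scale) of the 2282 autosomal Rbf peaks, 1 point per peak, with 2017 overlapping Dp in grey, 217 scattered without Dp in blue and 48 in runs without Dp in orange. Grey points form a rising band, blue points sit mainly to its left at widths around the median of 262 bp, and orange points lie to its right among wider peaks.

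The band of Rbf peaks with Dp widened as the score rose, and the scattered regions did not follow it. The score is the authors' value for a peak, which MACS raises with the evidence for enrichment, and it is used here to rank peaks within the Rbf list only. Among peaks with Dp the median width was 396.5 bp at scores from 50 to below 100 (368 to 426, n = 576), 454 bp from 100 to below 200 (438 to 472, n = 468) and 561 bp from 200 to below 400 (546 to 574, n = 459). In the same score classes scattered regions had medians of 260 bp (244 to 276, n = 120), 259 bp (236 to 283, n = 66) and 257 bp (221 to 280, n = 25). At scores of 400 or more, 514 peaks with Dp had a median of 712.5 bp (686 to 727), and 5 of the 6 scattered regions lay between 268 and 373 bp. The sixth was the 6477 bp region on 2R described below. Spearman's rank correlation of width and score was 0.0235 over the 217 scattered regions and 0.447 over the 2017 peaks with Dp, given as a description of points that share 1 list. It was 0.684 over the 48 regions in runs and 0.211 over all 265. At scores of 400 or more, runs held 11 regions, from 1226 to 11563 bp wide. Runs were set apart in the class without Dp but kept among the 2017, so these values are not like for like.

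Scores of the 265 regions were lower than those of peaks with Dp when all widths were pooled, with medians of 97.91 (89.33 to 104.52) and 188.76 (175.95 to 203.68). Scattered regions had a median of 93.22 (85.11 to 100.90) and reached 995.03, and regions in runs had 141.58 (109.16 to 269.36) and reached 3100. Of the scattered regions 33 of 217, and of those in runs 22 of 48, were at or above the median score of peaks with Dp. Among the 100 autosomal Rbf peaks of highest score, 6 lacked Dp (2.23 to 12.6%), against 11.6% of all autosomal Rbf peaks. These 6 lay in the chromosome 4 run and on 2R from 2184926 to 2323365, both described below, so they are not separate sites.

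Within narrow peaks the order of scores was the opposite. Rbf peaks under 300 bp scored a median of 92.4 without Dp (84.1 to 103, n = 162) and 61.6 with Dp (59.3 to 64.6, n = 153). The same order was seen below 250 bp, with medians of 90.4 (78.5 to 103, n = 94) and 58.8 (55.2 to 63.9, n = 59), and from 250 to below 300 bp, with 93.8 (83.7 to 107, n = 68) and 62.6 (61.3 to 67.6, n = 94). From 300 to below 400 bp the medians were close, 100.4 for 37 scattered regions (78.2 to 150) and 97.3 for 301 peaks with Dp (92.4 to 102). A score of at least 100 was reached by 73 of the 162 narrow peaks without Dp and by 20 of the 153 with Dp.

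Each large arm showed the same order among narrow peaks, with intervals that overlapped on 2L and 3L. Median scores without and with Dp were 76.1 (57.8 to 130) and 62.3 (55.2 to 69.8) on 2L. On 2R they were 98.1 (81.7 to 124) and 61.5 (56.6 to 64.6). On 3L they were 83.2 (64.2 to 133) and 61.9 (58.1 to 67.6), and on 3R 97.1 (86.6 to 107) and 61.5 (57.4 to 72.0). Narrow peaks without and with Dp numbered 27 and 29 on 2L, 30 and 45 on 2R, 31 and 44 on 3L, and 72 and 33 on 3R.

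The share of Rbf peaks without Dp moved in opposite directions with score in narrow and wider peaks. Of peaks under 300 bp, 37.6% lacked Dp in the lowest of 4 equal score classes (30.8 to 44.7, n = 197), 73.4% in the second (62.3 to 82.7, n = 79) and 87.9% in the third (71.8 to 96.6, n = 33). The highest class, above 368, held only 6 such peaks, 1 of them without Dp (16.7%, 0.421 to 64.1), so the rise was not seen there and that bin is thin. In Rbf peaks 300 bp or wider, Dp was lacking from 9.89% (7.06 to 13.4), 6.52% (4.50 to 9.08), 2.98% (1.71 to 4.79) and 3.19% (1.90 to 4.99). By width alone, 51.4% of peaks under 300 bp lacked Dp (45.8 to 57.1), against 4.79% from 300 to below 600 bp, 2.17% from 600 to below 1000 bp and 13.4% at 1000 bp or more (9.73 to 17.8). Without the 5 runs the share at 1000 bp or more was 3.00% (1.30 to 5.82). Runs of peaks with Dp were kept, so this removal can only lower the share.

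**Figure D2:**
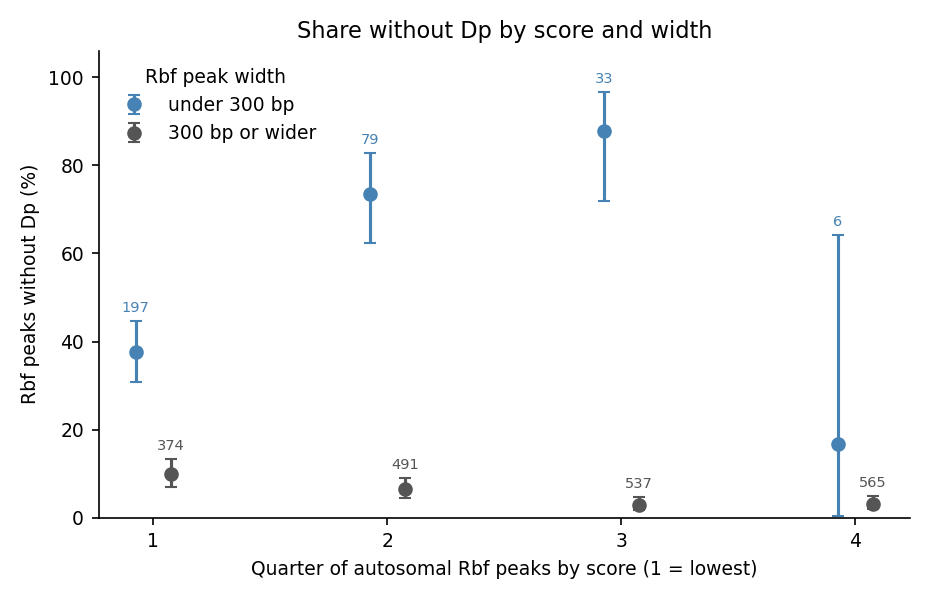
Percentage of autosomal Rbf peaks without Dp (y axis) in 4 equal score classes (x axis, 1 lowest), for peaks under 300 bp in blue and wider ones in grey, with exact 95% intervals and the number of peaks printed above each. Blue rises from 37.6% to 87.9% over the first classes and falls to 16.7% on 6 peaks, while grey stays between 2.98% and 9.89%.

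Several scattered regions combined a narrow width with a high score. On 3R, the region at 627717 to 628089 was 373 bp wide and scored 548.51, the highest on that arm, and its nearest Dp peak was 18.9 kb away. On 2L the highest score belonged to a 355 bp region at 20018021 to 20018375, which scored 524.4 and lay 7.33 kb from Dp. A 325 bp region at 23251802 to 23252126 on 3R, named for its distance to Dp of 94.8 kb, scored 363.31. Close groups existed too, and the following was named after its values were seen. On 3R between 20381685 and 20383172, 3 regions of 366, 268 and 361 bp stood at most 265 bases apart. Their scores were 366.08, 478.33 and 473.71, and Dp was more than 11 kb away. Of all 56 autosomal Rbf peaks under 400 bp that scored at least 200, 29 lacked Dp (51.8%, 38.0 to 65.3). All 29 scattered regions of that score outside the first 2.4 Mb of 2R were under 400 bp. That bound was set after the values were seen. It leaves out the scattered regions at 2184926 and 2191585 on 2R, 6477 and 2637 bp wide, which scored 995.03 and 385.44. Of peaks with Dp of that score, 27 of 973 were under 400 bp (2.78%, 1.84 to 4.01). Neither the bound nor the removal of runs was applied to these 973, so the shares are not like for like.

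The 5 runs looked different, with wide Rbf peaks a few bases to a few kb apart and no Dp peak inside any of them. Neighbouring regions in a run were separated by a median of 203 bases, from 3 to 4266, and 16 of the 43 gaps were at most 100 bases. The number of regions in a run is therefore a number of calls and not of separate sites. None of the runs contained an Rbf peak that overlapped Dp.

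The longest run lay at the listed end of chromosome 4, from 1277320 to 1350667. It held 20 regions over 73.3 kb, of which they covered 74.2%. Its widest region, 11563 bp at 1282034 to 1293596, was 1 of 2 regions without Dp that scored 3100. Another 5 regions of the run were among the 10 of highest score, with 680.58 at 1280593, 1234.85 at 1298743, 880.23 at 1332815, 781.54 at 1336193 and 1466.8 at 1345805. The lowest score was 50.63 and the median 251.74, so strong and weak calls lay side by side. The last Dp peak on chromosome 4 ended at 1272476, and all 20 Rbf peaks beyond it lacked Dp. Before that point, where all 66 Dp peaks of the chromosome lay, 3 of 49 Rbf peaks did.

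A pair of runs on 2R stood near each other, with further wide regions between them. The run at 2157491 to 2174831 held 10 regions over 17.3 kb, with scores from 50.32 to 635.91 and a widest region of 3606 bp at 2162202 to 2165807. The run at 2306576 to 2323365 held 4 over 16.8 kb and covered 84.9% of it. Among these was the other region tied at 3100, which began at 2315006 and measured 8360 bp, and a 3101 bp region at 2306576 to 2309676 with 2328.48. Between the runs lay the widest scattered region, 6477 bp at 2184926 to 2191402 with a score of 995.03, and beside it 2637 bp at 2191585 to 2194221 with 385.44.

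Dp was not scarce in that part of 2R, where stretches with Rbf alone lay between stretches with Dp alone or with both. In the 300 kb from 2100001 to 2400000, bounds chosen after the values were seen, there were 46 Rbf peaks, 16 without Dp, and 40 Dp peaks, 9 of which scored 1000 or more. Rbf covered 87.9 kb and Dp 105 kb, and 52.9 kb were covered by both, which is 60.2% of the Rbf length and 50.4% of the Dp length. Median widths were 1236 bp for the 16 regions without Dp, 1401 bp for the 30 with Dp and 1726 bp for the Dp peaks. Median Rbf scores were 161 without and 144 with Dp. The flanking Dp peaks came as close as 1.62 kb to the first of these runs and 3.25 kb to the second.

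The remaining runs were a 16.8 kb one near the listed start of 2R and a 13.8 kb one on 3L. The 2R run, at 101794 to 118624, held 6 regions with scores from 63.81 to 395.14, the widest being 4631 bp at 111391 to 116021. Dp peaks flanked it at 9.31 and 15.7 kb, scoring 62.67 and 466.7. The 3L run, at 20320848 to 20334636, held 8 regions with a median score of 79.0. Its strongest, 2945 bp at 20331130 to 20334074 with 561.08, was the highest of the 45 regions on 3L. Dp was absent from the list for 42.5 kb around that run.

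**Figure D3:**
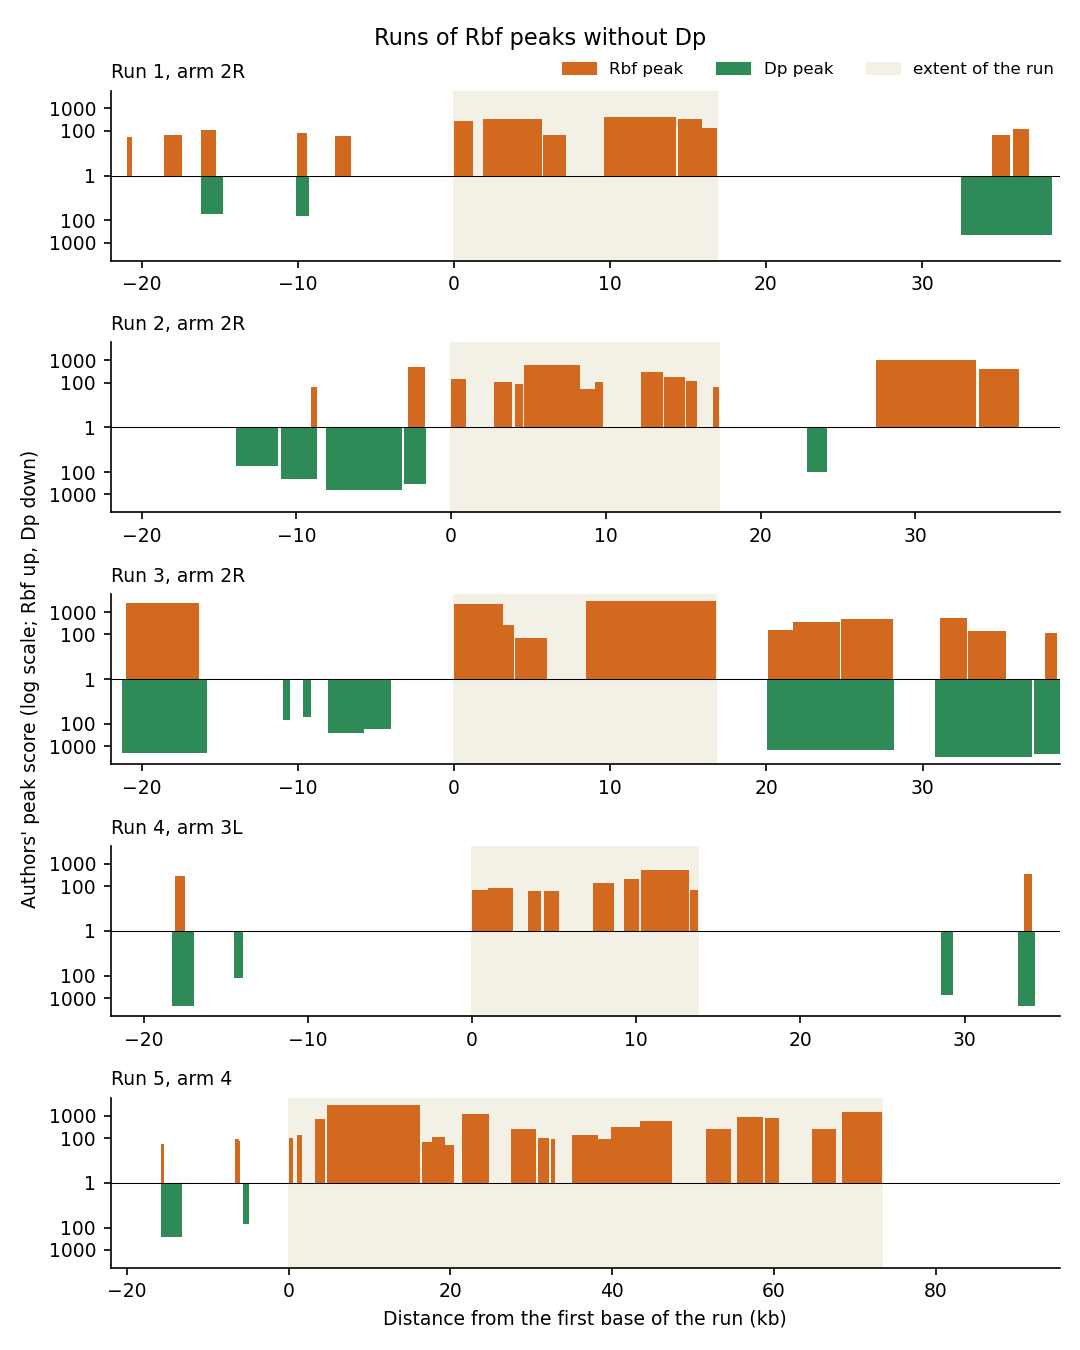
Maps of the 5 runs, with distance from the first base of the run in kb on the x axis and the authors' score on a log scale starting at 1 on the y axis, Rbf peaks upward in orange and Dp peaks downward in green. Inside the shaded extent of each run there are Rbf peaks and no Dp peak, and on chromosome 4 no Dp peak is listed from 4.84 kb before the run to the last Rbf peak.

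Wide regions without Dp were nearly all in or near these stretches. Of the 40 regions of at least 1000 bp, 32 were in runs. By position, 19 lay in the first 2.4 Mb of 2R, 17 on chromosome 4, 3 on 3L, 1 on 3R and none on 2L. The 259 peaks with Dp of that width were not counted by position, so no background stands beside these counts. On 2R from 2100001 to 2400000 the peaks with Dp were wide too, with a median of 1401 bp. Whether this placing is particular to regions without Dp was not tested. The first 2.4 Mb of 2R, again bounded after the values were seen, also held 23 scattered regions unlike the others. Their median width was 556 bp (334 to 1069) and their median score 70.3 (59.3 to 94.3). The 194 scattered regions elsewhere had medians of 256.5 bp (244 to 269) and 95.5 (87.6 to 103), and 80.9% of them were under 300 bp. Nearest Dp peaks were a median of 2.42 kb from the former and 11.6 kb from the latter. No values for peaks with Dp over the same 2.4 Mb stand beside these. Whether the differences are shared by all Rbf peaks of that stretch was not tested.

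Regions of the scattered kind were found along each large arm. Chromosome 4 held only 3 (2.22 per Mb, 0.458 to 6.49), and those at 1270715 and 1271212 were 12 bases apart. Of 95 bins of 1 Mb with an Rbf peak, 86 held at least 1 region without Dp, with a median of 2 per bin. Only 4 bins held 10 or more. The first Mb of 2R had 22 of 143 Rbf peaks (15.4%), and 2R from 2000001 had 16 of 60 (26.7%). On 3L from 20000001 there were 11 of 22 (50%), and on chromosome 4 from 1000001 there were 22 of 33 (66.7%). The share over all autosomal Rbf peaks was 11.6%, so the count in the first Mb of 2R goes with many Rbf peaks there. Scattered regions numbered 2.31 per Mb over all arms (2.02 to 2.64). The density was 3.05 on 3R (2.43 to 3.77), 2.61 on 2R (1.97 to 3.40), 1.76 on 2L (1.24 to 2.43) and 1.64 on 3L (1.16 to 2.27). On 2L and 3L the centromere-proximal stretches are left out, while on 2R and 3R they are included, so these densities cover unlike parts of the arms.

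Counted against all Rbf peaks of an arm, 9.05% lacked Dp on 2L (37 of 409), 10.8% on 2R (75 of 695), 9.70% on 3L (45 of 464) and 13.2% on 3R (85 of 645, 10.7 to 16.0). Chromosome 4 stood at 33.3% (23 of 69, 22.4 to 45.7). That value rested on 1 stretch. Without the run at its end, 3 of 49 Rbf peaks on chromosome 4 lacked Dp (6.12%, 1.28 to 16.9), an interval that includes the shares of the other arms. With all 5 runs left out, 3R had the highest share at 13.2%, and 2L, 2R and 3L had 9.05%, 8.15% and 8.11%. Runs of peaks with Dp were kept, so this removal can only lower a share. It could not move 2L and 3R, which held none of the 5 runs. In the first 2 Mb of 2R, 13.2% of Rbf peaks lacked Dp (8.86 to 18.6) against 9.80% of the rest (7.31 to 12.8). In the first 2 Mb of 3R the share was 15.4% (7.63 to 26.5) against 12.9% (10.3 to 15.9).

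**Figure D4:**
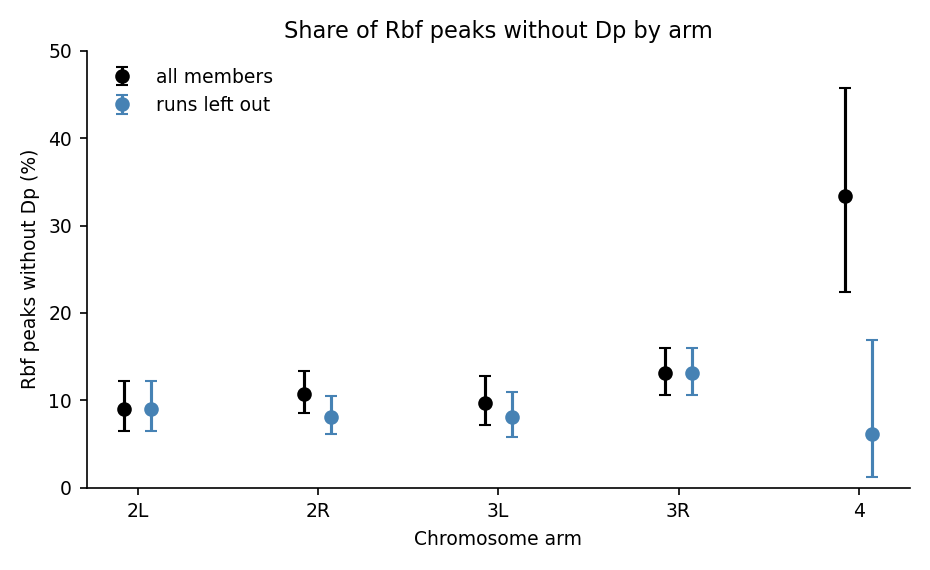
Percentage of Rbf peaks without Dp on each autosome arm, with exact 95% intervals, for all regions in black and with the 5 runs left out in blue. Chromosome 4 falls from 33.3% to 6.12% without its run, and 3R, which held none of the 5 runs, has 13.2% in both. Runs of peaks with Dp were kept, so blue cannot exceed black.

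Few regions were near misses of the rule. The nearest Dp peak lay a median of 10.1 kb away (7.71 to 13.9), with quartiles of 3.03 and 23.7 kb. Of the 265 regions, 12 (4.53%) were within 500 bases of Dp, 73 (27.5%) from there up to 5 kb, 100 (37.7%) up to 20 kb and 80 (30.2%) farther. Just inside the rule were a 274 bp region on 2R at 9878976 to 9879249, 6 bases from Dp, a 227 bp region on 3L at 14020726 to 14020952, 25 bases away, and a 211 bp region on 3R at 27780593 to 27780803, 38 bases away. Just outside it were a 281 bp Rbf peak on chromosome 4 at 434539 to 434819 that shares 17 bases with Dp, a 179 bp one on 2L at 8029820 to 8029998 that shares 103, and a 224 bp one on 3R at 10724110 to 10724333 that shares 111. The boundary is thinly filled, since 3 regions lay within 100 bases of Dp and 1 peak with Dp shared under 100 bases, while 1967 of 2017 lay wholly inside a Dp peak. In 6 of the 12 closest cases the neighbouring Dp peak contained another Rbf peak.

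At the other extreme, a 226 bp region on 3L at 22401724 to 22401949 was 144.9 kb from any Dp peak and scored 63.36. The farthest others were the 3R region at 23251802 named above and a 170 bp region on 3L at 10786734 to 10786903, which was 82.2 kb away and scored 202.15. Scores of scattered regions differed little with distance. The medians were 87.0 within 500 bases of Dp (63.4 to 103), 85.3 up to 5 kb (73.3 to 95.5), 100.4 up to 20 kb (83.2 to 115) and 100.9 beyond (81.7 to 124). Widths in the same classes had medians of 229.5, 280, 269 and 251 bp.

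**Figure D5:**
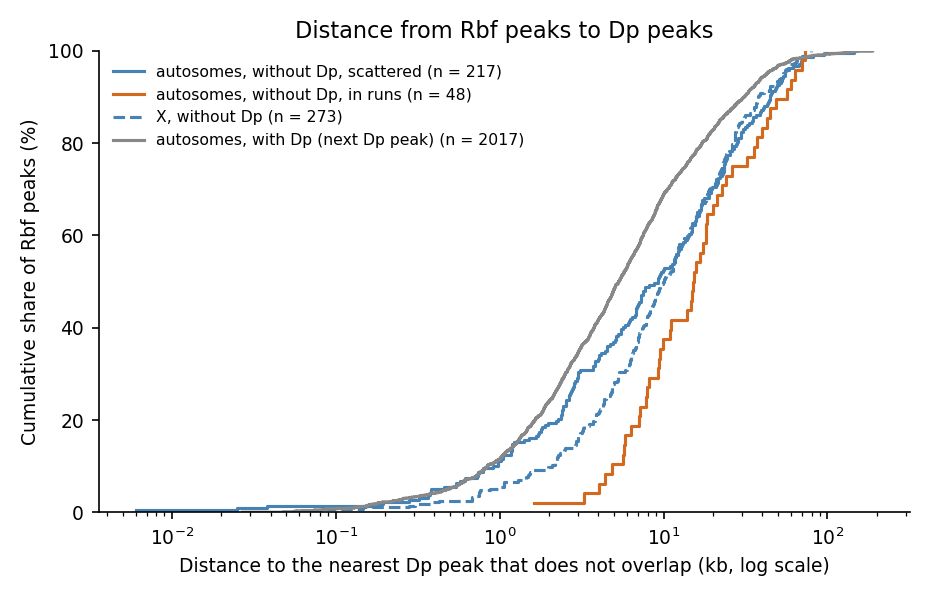
Cumulative percentage of Rbf peaks (y axis) by distance to the nearest Dp peak that does not overlap them (kb, log scale), for scattered autosomal regions (blue), runs (orange), Rbf peaks without Dp on X (dashed) and autosomal Rbf peaks with Dp (grey). The medians are 9.19, 15.2, 10.1 and 5.33 kb in that order.

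Narrow regions had surroundings poorer in Dp than those of narrow Rbf peaks with Dp. The Dp peak at the site itself was not counted. For wider peaks the intervals of scattered regions and peaks with Dp overlapped. Under 300 bp, the next Dp peak was a median of 11.6 kb from the 162 regions without Dp (7.51 to 14.9) and 4.35 kb from the 153 peaks with Dp (3.01 to 6.32). The stretch between the flanking Dp peaks measured 59.3 kb (49.9 to 70.5) and 28.6 kb (21.8 to 37.7). For the 55 scattered regions of at least 300 bp the next Dp peak was a median of 4.72 kb away (3.00 to 11.0), and for the 1864 peaks with Dp of that width 5.45 kb (5.00 to 5.91). Their stretches measured 37.2 kb (19.0 to 57.7) and 34.4 kb (32.1 to 37.6). The intervals for the 55 are wide, so a difference there is not excluded. Position is mixed with width here. The first 2.4 Mb of 2R held 23 scattered regions, only 5 of them under 300 bp, with Dp at a median of 2.42 kb. For the 194 elsewhere it was 11.6 kb. Over all widths, with runs left out of both classes, 114 of 217 scattered regions had another Dp peak within 10 kb (52.5%, 45.7 to 59.3), against 1165 of 1749 peaks with Dp (66.6%, 64.3 to 68.8). These measures are tied to the rule, since a longer stretch without Dp is more likely to hold an Rbf peak without it.

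Distance to the nearest other Rbf peak followed the same division by width, which is again mixed with position on 2R. Over all 265 regions the median was 9.65 kb (6.35 to 12.3), against 5.95 kb for all peaks with Dp (5.41 to 6.88), and another Rbf peak lay within 5 kb of 40.8% (34.8 to 46.9) and 46.7% (44.5 to 48.9). Leaving runs of 4 or more out of both classes, which removes close neighbours by construction, gave 14.4 kb (11.1 to 17.5) for 217 scattered regions and 8.22 kb (7.49 to 9.04) for 1749 peaks with Dp. Under 300 bp the medians were 16.2 kb without Dp (13.2 to 21.1) and 4.63 kb with Dp (3.14 to 9.50). Scattered regions of at least 300 bp had 4.93 kb (1.75 to 13.3), next to 6.002 kb for peaks with Dp of that width (5.50 to 6.96). The nearest other Rbf peak also lacked Dp for 47 of 217 scattered regions (21.7%, 16.4 to 27.7) and overlapped Dp for the other 170. Among all 2017 peaks with Dp, runs included, it lacked Dp for 138 (6.84%, 5.78 to 8.03). This difference was not tested.

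Rbf peaks without Dp on X, the most similar set, were narrow more often than those on the autosomes, and so were Rbf peaks with Dp. Those with Dp had a median of 483 bp on X (461 to 513) and 566 bp on the autosomes (552 to 577). Under 300 bp were 13.1% (10.2 to 16.4) and 7.59% (6.47 to 8.83) of them. X had 273 Rbf peaks without Dp beside 474 with Dp, and the autosomes 265 beside 2017. All 273 had a median width of 247 bp (231 to 263), and 73.6% were under 300 bp (68.0 to 78.8), against 282 bp (269 to 291) and 61.1% (54.98 to 67.0) for all 265 autosomal regions. With runs left out of both sets the intervals overlapped. The values were 239 bp (225 to 252) and 80.1% (74.6 to 84.8) for 251 peaks on X. For 217 on the autosomes they were 262 bp (249 to 273) and 74.7% (68.3 to 80.3). The median score on X was 111 (97.1 to 122) and the median distance to Dp 10.1 kb (8.32 to 12.1), next to 97.91 (89.33 to 104.52) and 10.1 kb (7.71 to 13.9) for all autosomal regions. Median widths on X were 236.5 bp (220 to 258) at scores from 50 to below 100, 244 bp (228 to 267) from 100 to below 200 and 273 bp (223 to 295) from 200 to below 400. At 400 or more, 12 peaks had a median of 302.5 bp (225 to 3803), and the rank correlation of width and score on X was 0.152. Narrow peaks on X scored a median of 100.5 without Dp (88.3 to 115, n = 201) and 78.5 with Dp (63.9 to 99.1, n = 62), and these intervals overlap. X had 3 runs of 4 or more, with 22 of its 273 peaks (8.06%, 5.12 to 11.9) and 33.5% of the covered length, against 48 of 265 (18.1%, 13.7 to 23.3) and 58.5% on the autosomes. The chromosome 4 run alone held 20 of those 48 regions and 54.4 of the 104 kb in autosomal runs, so the autosomal values lean on 1 stretch. None of these differences was tested, since both sets were chosen by the same rule from the same lists.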

How the data were processed

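ChIP-seq peaks of Rbf and Dp were taken from 2 lists, 1 per antibody, each taken to cover both samples. Peaks were called with MACS, per the names in the deposited lists. Build BDGP5 and the tools MACS 1.4.2, Bowtie2 2 and bcl2fastq 1.8.3 are listed, without roles, in the submitters' processing notes. The pooling of samples and the control used in peak calling are not given in the sources used here. The deposited score per peak has no stated unit, no value under 50.01, and ties at 3100 (13 Rbf and 76 Dp peaks). Read depth is unknown.

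Overlap meant at least 1 shared base, and the 265 regions were counted alike by bedtools 2.31.1. Distances are bases between peak edges. Runs link regions at most 5 kb apart. Densities use 21 Mb of 2L, 22.5 Mb of 3L and the largest listed peak end elsewhere. Shares have exact Clopper-Pearson intervals, medians order-statistic intervals and densities exact Poisson intervals, all at 95%. Overlap, distance and run code was tested on simulated data. Software comprised matplotlib 3.10.9, pandas 2.3.3, scipy 1.17.1 and numpy 2.4.6 under Python 3.11.15.

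The regions, limits and lists were chosen with earlier results of these data known. Named regions were the 10 of highest score, the highest of each arm, the 5 widest, the 3 nearest and 3 farthest from Dp, the 3 Rbf peaks sharing fewest bases with Dp, and every run of 4 or more. Others are said to have been named later. Genes and sequence were not analysed here for lack of a genome of the same build. No cell type markers apply to peak lists.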

Additional observations from a re-analysis of the deposited data

How the results depend on the processing

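Of 51 alternative values for 5 results, 33 stayed within the 95% interval of the value reported (for the count of regions in runs, within 1.5 times). The share of autosomal Rbf peaks without Dp, 11.6%, was 38.8% when 200 bp midpoint windows had to meet, 8.28% for Rbf scores of at least 100, 6.10% above the median score of the Rbf list and 13.9% with Dp scores of at least 100. It was 5.24% without Rbf peaks under 300 bp, 13.0% with the left-out rows of 2L and 3L put back (89 of 441 without Dp) and 9.71% without runs. Only runs of regions without Dp were removed, which can only lower the share. The median width, 282 bp, was 570 bp with midpoint windows, 300 bp above the median score, 674 bp without peaks under 300 bp, 309 bp with the left-out rows put back, and 262 bp both with peaks within 5 kb counted once and without runs. The median score, 97.91, was 165 for scores of at least 100, 267.8 above the median and 105 without peaks under 300 bp. Those filters select on score or width, so part of each shift is built into them. The median distance to Dp was 0 with midpoint windows, which admit 886 peaks that mostly overlap Dp, and 7.98 to 12.7 kb otherwise. Regions in runs numbered 30 with links of 2 kb in place of 5 kb, against 48. Leaving out runs and the other settings for runs were added after the data were seen. No paired analysis was possible because a peak has a single score and none per sample, and leaving out a replicate was not possible either. Unknown depth limits every statement that a Dp peak is missing.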
